A study of Mus musculus with 6 samples.

Results

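The genes described here encode enzymes that write or remove methyl groups on DNA and on histones, together with the core subunits that some of them need. They were taken from the deposited table by symbol: the *Setd*, *Prdm*, *Prmt*, *Tet* and *Dnmt* families, and the named genes *Ezh1*, *Ezh2*, *Eed*, *Suz12*, *Ehmt1*, *Ehmt2*, *Suv39h1*, *Suv39h2*, *Dot1l*, *Whsc1* and *Nsd1*. The table held 43 such genes among its 17428 rows: 4 DNA methyltransferase genes, 2 TET genes, 4 genes of the Polycomb repressive complex PRC2, 16 lysine methyltransferase genes, 10 PRDM genes and 7 arginine methyltransferase genes. These groups follow gene symbols, and the activity of each protein was not checked. *Tet2* was not analysed here. The *Kdm* lysine demethylases had no row under that name, and 18 rows that carry older symbols of genes in these families (17 of them demethylase genes) are described apart.

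RNA was sequenced from EpH4, a mouse mammary epithelial cell line, at 3 stages with 2 libraries each. E cells were grown in normal medium without TGFβ1. M cells received TGFβ1, a cytokine that drives epithelial-mesenchymal transition (EMT), for 7 days, and RE cells were M cells returned to normal medium for another 4 days. All 3 stages came from 1 cell line under 1 treatment schedule, and the labels name no genetic change. Per the study's methods the 2 libraries of a stage are biological replicates. Libraries are named by stage and replicate number, from E1 to RE2.

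DNA methylation is copied after replication by a maintenance enzyme, is placed at new sites by de novo enzymes and is removed stepwise through oxidation by TET dioxygenases. Histone lysine and arginine residues are methylated by separate enzyme families, whose marks go with active or silenced chromatin depending on the residue. PRDM proteins join a domain related to the catalytic SET domain to zinc fingers, and several act as DNA-binding repressors for which enzyme activity of their own is not well established. In epithelial cells these enzymes are studied because EMT can be reversed without a change in DNA sequence.

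Promoters of the 4 genes called differentially expressed between E and M cells are shown so that their base composition can be seen beside their values. Each is the 250 bases before the annotated start (RefSeq, GRCm38.p6), 5′ to 3′ on the gene's own strand. For *Prdm10* the window of the more upstream of 2 annotated starts is given. Capitals mark matches to the motifs searched.
Prdm1, chr10:44458749-44458998, minus strand: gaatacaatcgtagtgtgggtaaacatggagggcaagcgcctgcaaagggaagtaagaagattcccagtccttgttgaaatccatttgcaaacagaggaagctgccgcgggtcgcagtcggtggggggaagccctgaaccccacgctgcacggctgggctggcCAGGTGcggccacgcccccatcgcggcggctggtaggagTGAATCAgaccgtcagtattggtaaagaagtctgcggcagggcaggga
Prdm10, chr9:31280299-31280548, plus strand: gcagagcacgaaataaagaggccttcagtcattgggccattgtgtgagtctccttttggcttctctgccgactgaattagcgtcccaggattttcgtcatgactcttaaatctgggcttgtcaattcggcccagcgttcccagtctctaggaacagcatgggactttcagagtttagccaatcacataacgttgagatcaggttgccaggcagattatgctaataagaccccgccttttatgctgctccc
Prdm11, chr2:93046166-93046415, minus strand: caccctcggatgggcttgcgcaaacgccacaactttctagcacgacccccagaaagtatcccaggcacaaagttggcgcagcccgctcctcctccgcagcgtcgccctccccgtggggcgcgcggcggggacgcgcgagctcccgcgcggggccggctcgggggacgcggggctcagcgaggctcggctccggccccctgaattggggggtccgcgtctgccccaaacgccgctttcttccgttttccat
Setd7, chr3:51560824-51561073, minus strand: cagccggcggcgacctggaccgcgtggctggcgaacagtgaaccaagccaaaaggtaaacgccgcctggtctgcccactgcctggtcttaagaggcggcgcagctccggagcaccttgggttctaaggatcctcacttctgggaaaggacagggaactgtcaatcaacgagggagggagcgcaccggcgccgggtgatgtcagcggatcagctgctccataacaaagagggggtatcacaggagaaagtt
The windows differed in CpG content: 32 CpG in *Prdm11*, 17 in *Setd7*, 15 in *Prdm1* and 8 in *Prdm10*. Promoters were found for 36 of the 43 genes, with 50 starts between them. Over the full windows of 300 bases, the member starts held a median of 26 CpG, against 7 over all 32851 starts of the table, and a median GC content of 64.8% against 52.7%.

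Both strands of these windows were searched for 5 motifs. The E-box CAGGTG, the sequence bound by EMT repressors of the SNAI and ZEB families, was in 20.2% of all starts and in 30% of member starts, from 14 genes. The AP-1 motif TGANTCA was in 7.81% of all starts and in 2% of member starts. Among the members only *Prdm1* held it, as TGAATCA with its first base 48 bases before the start, while a CAGGTG began 87 bases before it. The E2F motifs TTTCCCGC (1.07% of all starts) and TTTGGCGC (0.514%) were each in 4% of member starts, the former in *Prdm4* and *Suz12* and the latter in *Dnmt1* and *Ezh2*. The SMAD palindrome GTCTAGAC was in 0.213% of all starts and was found at none of the 50 member starts. These matches describe the letters of the windows only.

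The authors' values behave as coverage, that is, sequenced bases summed over a gene, and each library held between 35782513 and 47928557 reads' worth of 50 bases. Levels are given as normalised coverage in ppm of the library total, and differences as log2 fold changes of ppm + 0.1. A gene passed the test where its adjusted p in limma, over the 13893 genes tested, was below 0.05, and was called a differentially expressed gene (DEG) where adjusted p was below 0.01 and the log2 fold change above 1 either way. The E libraries stood apart from each other: the SD of their log2 gap was 0.558 over all genes, against 0.318 in M and 0.309 in RE. The epithelial markers *Krt8* and *Cdh1* were present at every stage. Of 8 epithelial markers tested, 4 were DEGs lower in M (50%, against 8.39% of all genes): *Cldn3*, *Cldn4*, *Cldn7* and *Ocln*. Only 1 passed as higher in M, *Krt8* (12.5%, against 21.5% of all genes). Mesenchymal markers such as *Vim*, 10 of 10 of them, were DEGs higher in M (100%, against 8.58% of all genes). In RE against E, 10 of 10 passed as higher (100%, against 17.2%). There 7 of the 8 epithelial markers passed as lower and 0 as higher (87.5% lower, against 12.9%). The summed level of 6 immune markers ran from 16.8 to 17.7 ppm in E and from 30.6 to 34.2 ppm in the other libraries. Of these markers, *Cd14* had means of 9.91 ppm in E, 25.2 ppm in M and 26.6 ppm in RE. *Cd68* did not rise, with means of 7.19, 6.98 and 5.57 ppm in the same order. *Ptprc* and *Cd3e* were at or under the floor of 3 reads' worth in all 6 libraries. The summed level of 4 endothelial markers was 2.71 and 2.73 ppm in M and at most 0.56 ppm elsewhere. Its largest part in M was *Cdh5*, with means of 0 ppm in E, 2.20 ppm in M and 0.067 ppm in RE. The summed level of 9 epithelial markers was between 2924 and 3282 ppm in E and M and was 1212 and 1325 ppm in RE. The largest part of that sum was *Krt7*, with means of 1409 ppm in E, 1585 ppm in M and 366 ppm in RE. The summed level of 3 adipocyte markers was 9.05 and 3.13 ppm in E and at most 2.22 ppm elsewhere. Only *Fabp4* among them was high enough to be tested, with means of 6.04 ppm in E, 0.0402 ppm in M and 2.04 ppm in RE. In RNA from whole cultures, fewer cells of a kind and less RNA per cell cannot be told apart.

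Of the 43 genes, 39 had enough coverage to be tested. The other 4 were near the floor. *Prdm16* and *Prmt8* were at or under it in all 6 libraries. *Dnmt3l*, a germline cofactor of de novo DNA methylation, was above it only in E2 (0.115 ppm). *Prdm14*, a pluripotency and germline regulator, lay above it in 3 libraries and reached 0.266 ppm in M1. Per kb of the longest transcript, mean levels in E cells ran from 0.0142 ppm for *Prdm1* and 0.0462 ppm for *Tet1* to 83.5 ppm for *Ehmt2* and 99.8 ppm for *Dnmt1* among the genes tested, so that the maintenance DNA methyltransferase was the highest of them.

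Of these 39 genes, 15 passed the test in at least 1 comparison and 24 in none. *Prdm1* alone passed in all 3. In E vs. M, 11 of 39 passed (28.2%, against 41.4% of all genes tested), 9 higher and 2 lower in M (all genes 21.5% and 19.9%), with a median log2 fold change of 0.171 against 0.001 over all genes. In M vs. RE, 8 passed (20.5%, against 31.5%), 1 higher and 7 lower in RE (all genes 17% and 14.6%), with a median of -0.095 against -0.017. In E vs. RE, 9 passed (23.1%, against 30.1%), 5 higher and 4 lower in RE (all genes 17.2% and 12.9%), with a median of -0.015 against 0.008. In each comparison the share of these genes that passed was under that of all genes tested, a difference that was not itself tested and that turned around without 1 of the E libraries, as given further on. The comparisons share libraries, since each stage enters 2 of them.

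**Figure D1:**
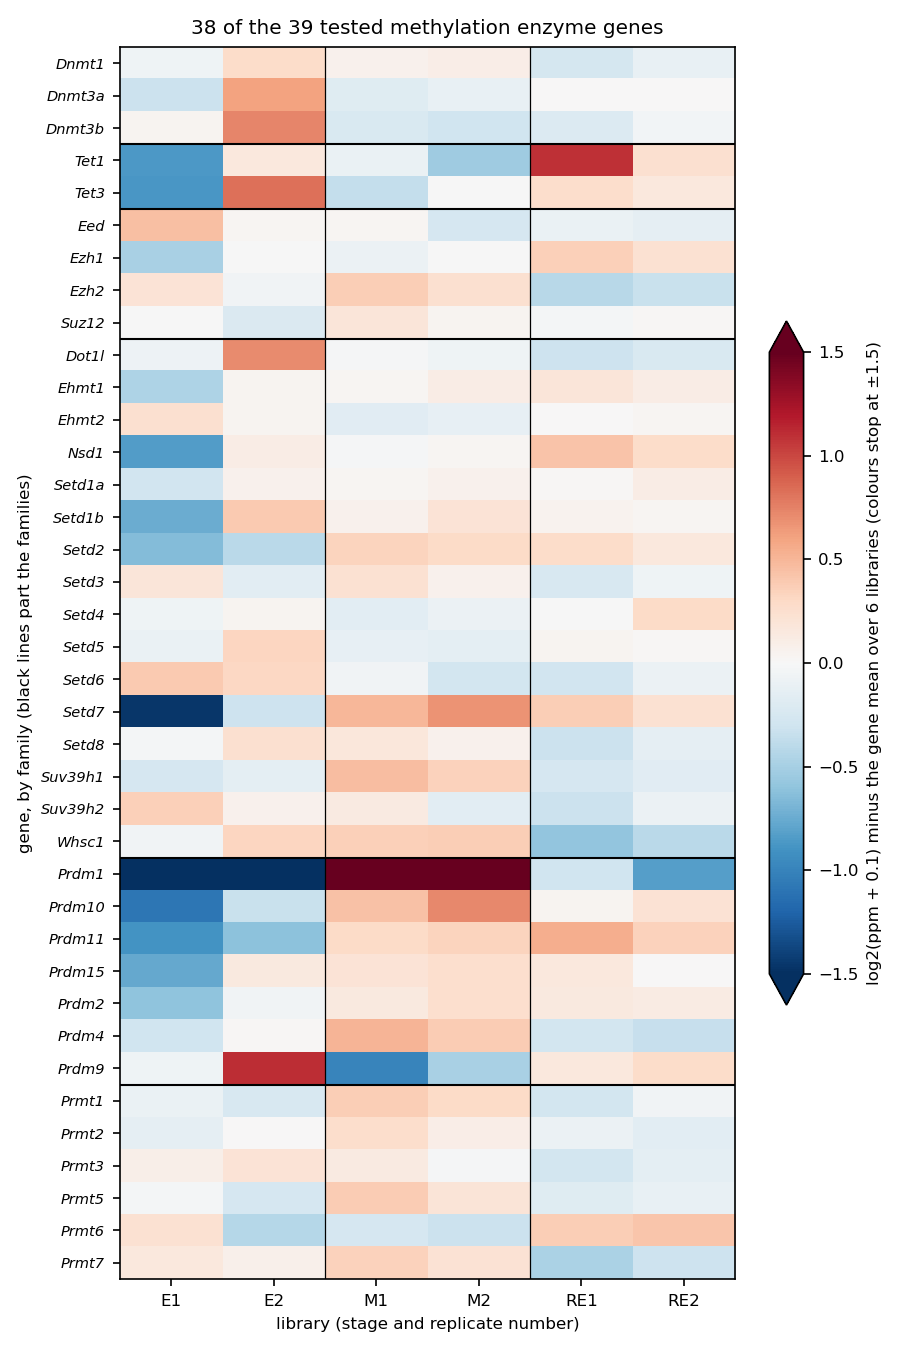
Level of 38 of the 39 tested genes in each library as log2(ppm + 0.1) minus the gene's mean over the 6 libraries, in rows by family. Columns are the libraries; the *Prdm1* row runs past the colour scale, and E1 is low in many rows where E2 is not.

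The gene that differed most between E and M cells belonged to the PRDM family. *Prdm1* encodes BLIMP1, a zinc finger repressor known from plasma cells and the germline. Its level was 0.111 and 0.0390 ppm in E1 and E2, 4.72 and 6.95 ppm in M1 and M2, and 0.571 and 0.364 ppm in RE1 and RE2. It was almost absent in E cells, with 240 and 75 bases, and the M libraries lay far above all others, while both RE libraries lay between E and M. The gene therefore passed the coverage filter through M and RE. *Prdm1* rose in M (log2 fold change 5.09 ± 0.36 SE, adjusted p = 6.52e-05, limma), fell in RE against M (-3.38 ± 0.36, adjusted p = 0.000467), and stayed higher in RE than in E (1.70 ± 0.36, adjusted p = 0.0123). Because the E values are near the floor, the first of these sizes follows the pseudocount: it was 5.95 with 0.025 ppm and 2.65 with 1 ppm. With 1 ppm the E vs. RE difference was 0.45 and did not pass (adjusted p = 0.1).

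*Prdm10*, a zinc finger transcription factor, had 10.7 and 18.2 ppm in E, 31.0 and 37.8 ppm in M, and 23.6 and 26.5 ppm in RE. Both M libraries were above both RE libraries, which were above both E libraries. It rose in M (1.28 ± 0.25, adjusted p = 0.00573) and was higher in RE than in E (0.83 ± 0.25, adjusted p = 0.0415). The latter call was lost with library totals (adjusted p = 0.0588), with no filter (0.0627), with only the 2 groups compared (0.0879) and with GC and length trends removed (0.104). *Prdm11*, a PRDM protein that lacks the usual zinc finger array, was low, with 1.27 and 1.56 ppm in E, 3.02 and 3.11 ppm in M and 3.62 and 3.15 ppm in RE. The M and RE libraries were close to each other and each lay above both E libraries. *Prdm11* rose in M (1.07 ± 0.22, adjusted p = 0.00731) and was the only member called a DEG in E vs. RE (1.21 ± 0.22, adjusted p = 0.00706).

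*Prdm4*, a zinc finger factor of the same family, rose in M and fell in RE. It had 101 and 126 ppm in E, 177 and 162 ppm in M and 103 and 98.0 ppm in RE, with both M libraries above the other 4. The log2 fold change was 0.58 ± 0.15 in E vs. M (adjusted p = 0.0163) and -0.75 ± 0.15 in M vs. RE (adjusted p = 0.00748). With library totals the former was 0.28 and did not pass (adjusted p = 0.117). *Prdm9*, which marks meiotic recombination sites, fell in M (-1.26 ± 0.38, adjusted p = 0.0329) from 2.95 and 6.79 ppm in E to 1.51 and 2.18 ppm. Its E libraries differed by more than 2-fold, and its RE libraries, at 3.48 and 3.77 ppm, lay between them. The *Prdm9* call was lost with no filter (adjusted p = 0.0561) and with only the 2 groups compared (0.065). *Prdm2* and *Prdm15* passed in no comparison, and *Prdm2* came nearest, with an adjusted p of 0.0561 in E vs. M.

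**Figure D2:**
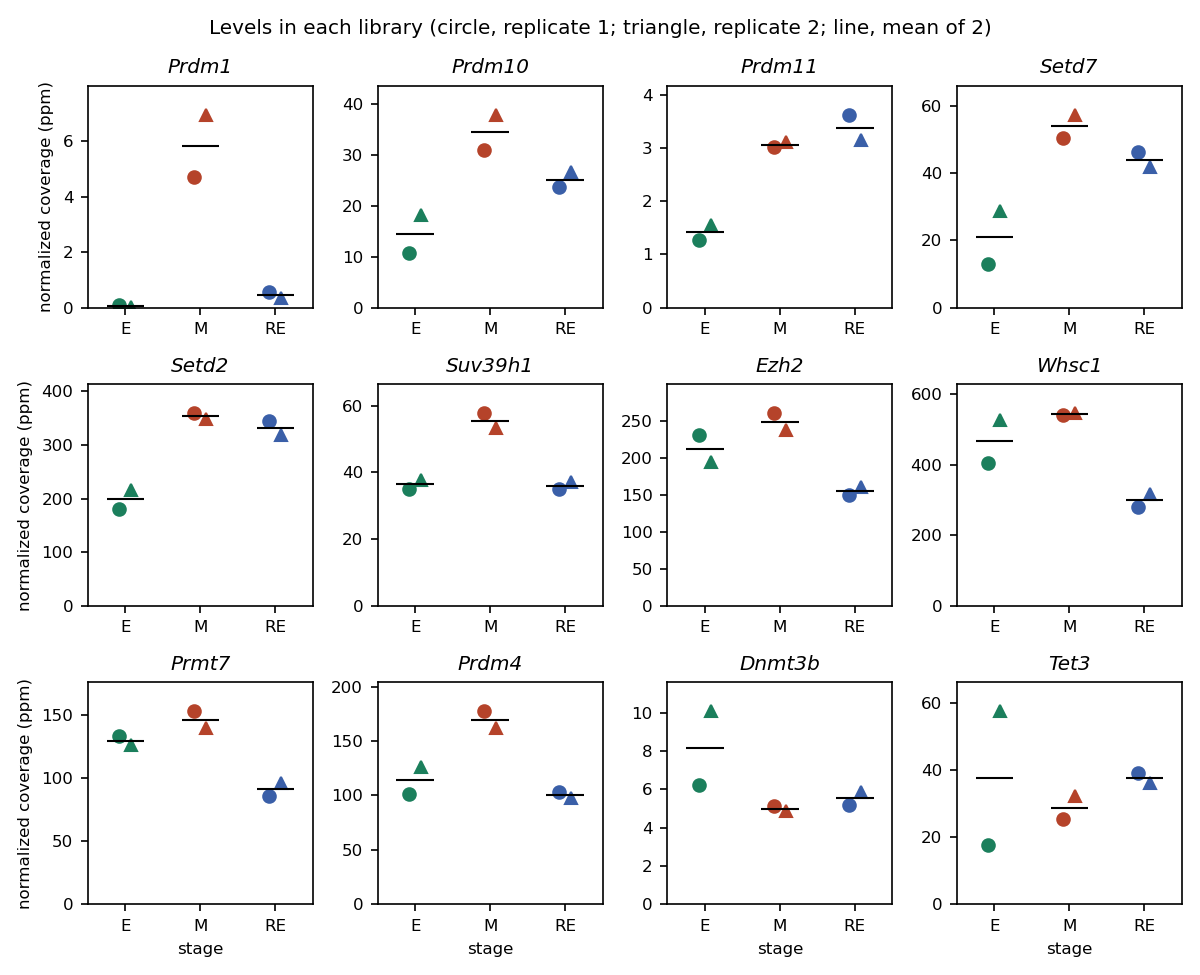
Normalised coverage in ppm at each stage for 12 of the genes, each panel with its own scale from 0. Circles are replicate 1, triangles replicate 2 and lines the mean of 2; *Prdm1* is high only in M, *Setd2* and *Setd7* are low only in E, and *Ezh2*, *Whsc1* and *Prmt7* are lowest in RE.

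Among the genes grouped as lysine methyltransferases, 3 of 16 rose and 1 fell in M, or 25% against 41.4% of all genes. *Setd7*, a monomethyltransferase of histone H3 and of several transcription factors, had 12.9 and 28.9 ppm in E, 50.6 and 57.3 ppm in M and 46.2 and 41.7 ppm in RE. Every M and RE library lay above both E libraries, which themselves differed by more than 2-fold. *Setd7* rose in M (1.47 ± 0.33, adjusted p = 0.00991, just under the DEG threshold) and was higher in RE than in E (1.18 ± 0.33, adjusted p = 0.032). The latter call was lost with no filter (adjusted p = 0.0529) and with only the 2 groups compared (0.0759). *Setd2*, the enzyme that trimethylates H3 over transcribed gene bodies, had 181 and 215 ppm in E, 359 and 349 ppm in M and 344 and 319 ppm in RE. It rose in M (0.84 ± 0.14, adjusted p = 0.00287) and was higher in RE than in E (0.75 ± 0.14, adjusted p = 0.00765), with no overlap between E and the other stages. *Setd6*, which methylates non-histone proteins including an NF-κB subunit, moved the other way, from 43.0 and 40.5 ppm in E to 31.4 and 27.1 ppm in M and 26.8 and 30.9 ppm in RE. It fell in M (-0.51 ± 0.15, adjusted p = 0.0282) and was lower in RE than in E (-0.53 ± 0.15, adjusted p = 0.0329). Neither call passed with only the 2 groups compared (adjusted p = 0.0618 and 0.0768) or with array weights (0.0826 and 0.0883).

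*Suv39h1* writes the repressive H3 mark of heterochromatin. Its level was 35.1 and 37.8 ppm in E, 57.8 and 53.2 ppm in M and 34.9 and 37.2 ppm in RE, so that both M libraries were above the other 4 and RE overlapped E. It rose in M (0.61 ± 0.13, adjusted p = 0.00915) and fell in RE (-0.62 ± 0.13, adjusted p = 0.0107). Of its exonic bases, 14.6% overlap another gene on the opposite strand, with which it may share coverage. With library totals its difference between E and M did not pass (adjusted p = 0.0836). Its paralogue *Suv39h2* had 41.3 and 33.7 ppm in E, 35.4 and 28.7 ppm in M and 25.7 and 30.2 ppm in RE, and passed in no comparison (adjusted p from 0.111 to 0.450). The RE values overlapped those of M, and E1 was the highest library. *Ehmt1* and *Ehmt2*, the paired enzymes GLP and G9a that place a repressive H3 mark in euchromatin, did not pass either. *Ehmt1* had 57.6 and 81.7 ppm in E, 81.6 and 85.9 ppm in M and 90.1 and 86.1 ppm in RE. *Ehmt2* had 359 and 313 ppm in E, 271 and 279 ppm in M and 305 and 310.1 ppm in RE. The lowest library was E1 for *Ehmt1* and M1 for *Ehmt2*, and the smallest adjusted p of the *Ehmt* genes was 0.118, for *Ehmt2* in E vs. M.

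*Whsc1* (NSD2) and *Nsd1* dimethylate the H3 residue that *Setd2* trimethylates, and they did not follow each other. *Whsc1* had 406 and 528 ppm in E, 541 and 546 ppm in M and 281 and 318 ppm in RE, so that both RE libraries were the lowest. It fell in RE against M (-0.86 ± 0.16, adjusted p = 0.00673) and was lower in RE than in E (-0.63 ± 0.16, adjusted p = 0.0258). With only the 2 groups compared the difference from E did not pass (adjusted p = 0.0714). *Nsd1* had 65.2 and 125 ppm in E, 115 and 119 ppm in M and 157 and 141 ppm in RE. Its RE libraries were the highest, but E2 lay above both M libraries while E1 was far below, and E vs. RE did not pass (0.72 ± 0.27, adjusted p = 0.0834). *Dot1l*, which methylates H3 in the globular domain, had 227 and 390.3 ppm in E, 235 and 228 ppm in M and 193 and 204 ppm in RE. The RE libraries were again the lowest and E2 stood far above the other 5, and no comparison passed (smallest adjusted p 0.0982, E vs. RE). The remaining 6 genes placed in this group by symbol, *Setd1a*, *Setd1b*, *Setd3*, *Setd4*, *Setd5* and *Setd8*, passed in no comparison. Their log2 fold changes all lay within 0.5 either way. *Setd1a* shares 51.8% of its exonic bases with another gene on the same strand.

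In PRC2, which places the Polycomb mark on H3, the catalytic subunit *Ezh2* was the one to pass. *Ezh2* had 231 and 194 ppm in E, 260.4 and 237 ppm in M and 150.5 and 160.2 ppm in RE, with both RE libraries below the other 4. It fell in RE against M (-0.68 ± 0.14, adjusted p = 0.00998) and was lower in RE than in E (-0.45 ± 0.14, adjusted p = 0.0492). The latter call was lost with no filter (adjusted p = 0.0622), with a pseudocount of 0.025 ppm (0.0504), with array weights (0.0852) and with only the 2 groups compared (0.11). The alternative catalytic subunit *Ezh1* had 28.8 and 40.4 ppm in E, 38.2 and 40.3 ppm in M and 51.7 and 47.3 ppm in RE. Its highest libraries were those of RE, opposite to *Ezh2*, though E vs. RE did not pass (0.53 ± 0.18, adjusted p = 0.0586). *Eed*, which reads the mark, had 131 and 98.0 ppm in E, 98.1 and 80.6 ppm in M and 89.7 and 87.6 ppm in RE. *Suz12*, the scaffold, had 244 and 211 ppm in E, 278 and 252 ppm in M and 238 and 248 ppm in RE. M levels of *Eed* overlapped those of both other stages and both E libraries lay above both RE libraries, while both M libraries of *Suz12* lay above the other 4 by a small margin. Neither gene passed in any comparison, with adjusted p from 0.148 to 0.989.

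Of the arginine methyltransferases, 2 of 6 tested rose in M (33.3%, against 41.4% of all genes), and in M vs. RE 2 fell and 1 rose (50%, against 31.5%). With library totals *Prmt1* (0.20, adjusted p = 0.268) and *Prmt5* (0.13, adjusted p = 0.478) did not pass in E vs. M, nor *Prmt1* in M vs. RE (-0.28, adjusted p = 0.162). Both E vs. M calls were also lost with only the 2 groups compared (adjusted p = 0.0534 and 0.103) and with array weights (0.0562 and 0.0869). That of *Prmt5* was lost with no filter too (adjusted p = 0.0504). *Prmt1*, the main asymmetric dimethylase, had 141 and 129 ppm in E, 197 and 186 ppm in M and 126 and 147 ppm in RE. It rose in M (0.50 ± 0.14, adjusted p = 0.0224) and fell in RE (-0.49 ± 0.14, adjusted p = 0.031), and both M libraries were above the other 4. *Prmt5*, the main symmetric dimethylase, rose in M (0.43 ± 0.14, adjusted p = 0.0435) from 144 and 123 ppm to 191 and 168 ppm. Its values of 129 and 136 ppm in RE lay within the E range, and its difference from M did not pass (adjusted p = 0.0516). *Prmt7*, the monomethylating member of the family, had 134 and 126 ppm in E, 153 and 139.8 ppm in M and 86.4 and 96.7 ppm in RE. It fell in RE against M (-0.68 ± 0.13, adjusted p = 0.00709) and was lower in RE than in E (-0.51 ± 0.13, adjusted p = 0.0248), with both RE libraries the lowest. With only the 2 groups compared the difference from E did not pass (adjusted p = 0.0706), nor with array weights (0.0586). *Prmt6* was the only member that passed as higher in RE than in M (0.67 ± 0.21, adjusted p = 0.0476), from 23.6 and 22.5 ppm to 36.2 and 37.4 ppm. *Tet1* (0.98) and *Prdm9* (0.96) had larger rises that did not pass. The *Prmt6* call was lost with no filter (adjusted p = 0.0658) and with a pseudocount of 1 ppm (0.0509). The E values of *Prmt6*, 33.0 and 20.9 ppm, spanned those of M, and 23.4% of its exonic bases overlap a gene on the opposite strand. *Prmt2* and *Prmt3* passed in no comparison.

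None of the DNA methyltransferase or TET genes passed in limma in any comparison, with 1 of 3 DNA methyltransferase genes (*Dnmt3b*, E vs. M) and 0 of 2 TET genes at an unadjusted p under 0.05. *Dnmt1*, the maintenance enzyme, had 518 and 654 ppm in E, 565 and 580.3 ppm in M and 451 and 499 ppm in RE. The M values lay inside the E range and both RE values were below it, with adjusted p from 0.194 to 0.918. The de novo enzyme *Dnmt3a* had 15.2 and 28.8 ppm in E, 16.8 and 17.7 ppm in M and 19.1 and 19.1 ppm in RE, where M and RE lay between the 2 E libraries. *Dnmt3b*, the other de novo enzyme, had 6.21 and 10.1 ppm in E, 5.13 and 4.87 ppm in M and 5.20 and 5.87 ppm in RE. Every M and RE library lay below both E libraries, but the E spread was wide and the differences did not pass (-0.65 ± 0.25 in M, adjusted p = 0.0709, and -0.51 ± 0.25 in RE, adjusted p = 0.156). *Tet1* was barely covered, with 0.404 and 0.924 ppm in E, 0.755 and 0.532 ppm in M and 1.85 and 0.977 ppm in RE. Both RE libraries were the highest, RE2 only just, and neither M vs. RE (0.98 ± 0.44, adjusted p = 0.134) nor E vs. RE (1.01 ± 0.44, adjusted p = 0.12) passed. *Tet3* had 17.6 and 57.4 ppm in E, 25.2 and 32.2 ppm in M and 38.9 and 36.2 ppm in RE, and its E libraries enclosed all others.

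**Figure D3:**
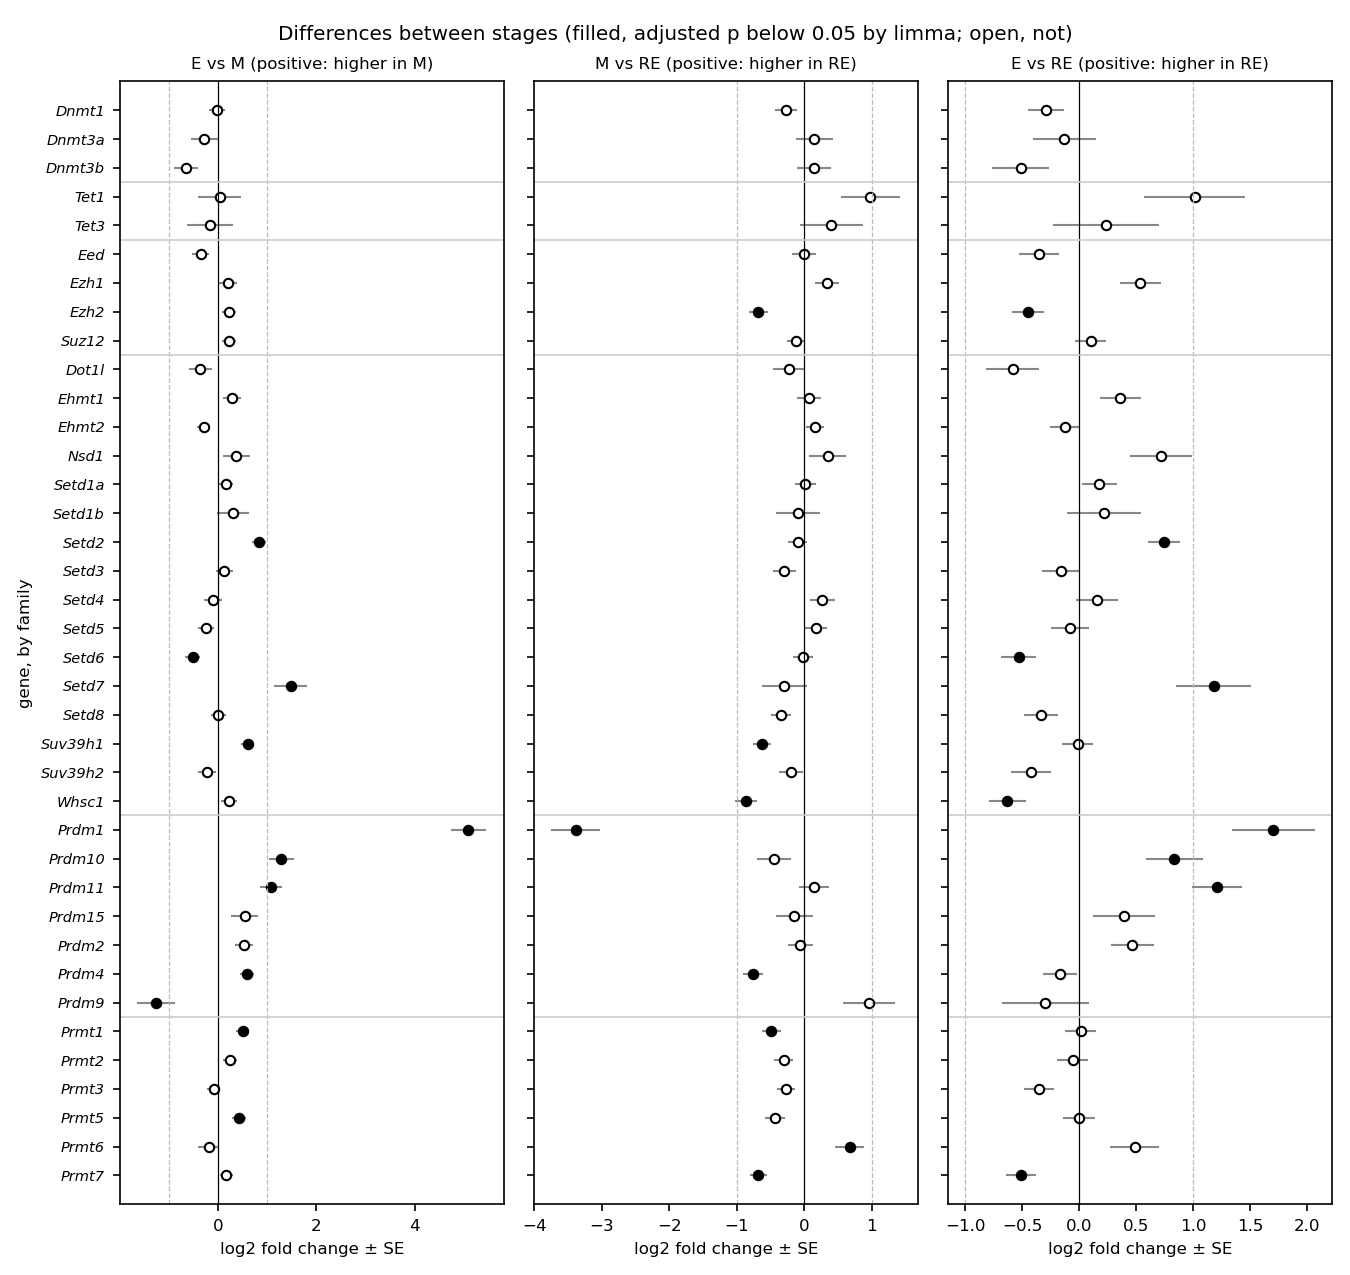
Log2 fold change ± SE of 38 of the 39 tested genes in the 3 comparisons, in rows by family (positive: higher in the stage named second). Filled points passed (adjusted p below 0.05, limma) and open points did not; dashed lines mark a change of 1 either way. In E vs. M, the filled points right of that line are *Prdm1*, *Prdm10*, *Prdm11* and *Setd7*.

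The E vs. M calls comprised 4 DEGs, *Prdm1*, *Prdm10*, *Prdm11* and *Setd7*, all higher in M, which is 10.3% of the 39 against 17% of all genes tested (8.58% higher, 8.39% lower). From M to RE there was 1, *Prdm1*, which was lower, or 2.56% against 12.9% (8.08% higher, 4.79% lower). From E to RE there was 1, *Prdm11*, which was higher, or 2.56% against 9.37% (6.2% higher, 3.17% lower). Scaling by library totals alone shifted the median of all genes to -0.29 in E vs. M, and the split of genes that passed went from 9 higher and 2 lower to 5 higher and 10 lower. Leaving out 1 library moved the members that passed and the share of all genes together. In E vs. M the 11 became 18 without E1 (46.2%, against 53.4% of all genes), 25 without E2 (64.1%, against 63%), 3 without M1 (7.69%, against 19.6%), 2 without M2 (5.13%, against 20.1%) and 7 without RE1 or RE2 (17.9%, against 31.7% or 31.8%). In M vs. RE the 8 became 22 without E1 (56.4%, against 56.3%), 21 without E2 (53.8%, against 56.2%), 1 without M1, M2 or RE1 (2.56%, against 12.1% to 14.1%) and 3 without RE2 (7.69%, against 15.4%). In E vs. RE the 9 became 21 without E1 (53.8%, against 45.5%), 22 without E2 (56.4%, against 56%), 3 without M1 or M2 (7.69%, against 19.3% or 19.4%), 0 without RE1 (against 6.16%) and 2 without RE2 (5.13%, against 11.6%). The members' share was thus above that of all genes in 4 of these refits, all without an E library. The 4 DEGs of E vs. M became 1 (*Prdm1*) without M1, M2, RE1 or RE2. The 1 of E vs. RE became 2 without E1 (*Prdm1* and *Prdm11*), 7 without E2, with *Nsd1*, *Tet1* and *Tet3* among them, and 0 without M1, M2, RE1 or RE2. *Prdm1* passed in E vs. M and in M vs. RE under every alternative run, as did *Setd2* in E vs. M.

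Transcript length moved with the spread of the E libraries. Over the 39 genes the gap between E2 and E1 in log2 level had a correlation of 0.657 with log2 transcript length (0.414 over all genes with a length), and 27 of the 39 were higher in E2. The same correlation was 0.277 in M (0.0206 over all genes) and -0.506 in RE (-0.153 over all genes). These are descriptions over genes that share libraries, with no p. The gap exceeded 2-fold for 5 members in E, *Prdm9*, *Setd1b*, *Setd7*, *Tet1* and *Tet3*, and for none in M or RE. When the trends of each library with GC content and with length were taken out (a choice made after the data were seen), the fit left *Prdm1* with 4.78 and *Setd7* with 1.12 in E vs. M. It brought *Prdm10* to 0.91 and *Prdm11* to 0.64 there, both still past adjusted p 0.05. From E to RE the DEG was then *Whsc1*, which was lower, in place of *Prdm11* (0.83, adjusted p = 0.0208). The removal turned *Setd2* from 0.75 to 0.23 (adjusted p = 0.128) and *Whsc1* from -0.63 to -1.17 (adjusted p = 0.000629). *Dnmt3b* then passed in E vs. M (-0.77, adjusted p = 0.0133) and in E vs. RE (-0.69, adjusted p = 0.0275), and *Dot1l* in E vs. RE (-0.79, adjusted p = 0.00249). *Prdm10* and *Setd6* did not pass in E vs. RE, nor *Setd6* in E vs. M, nor *Prmt6* in M vs. RE (adjusted p = 0.0538).

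**Figure D4:**
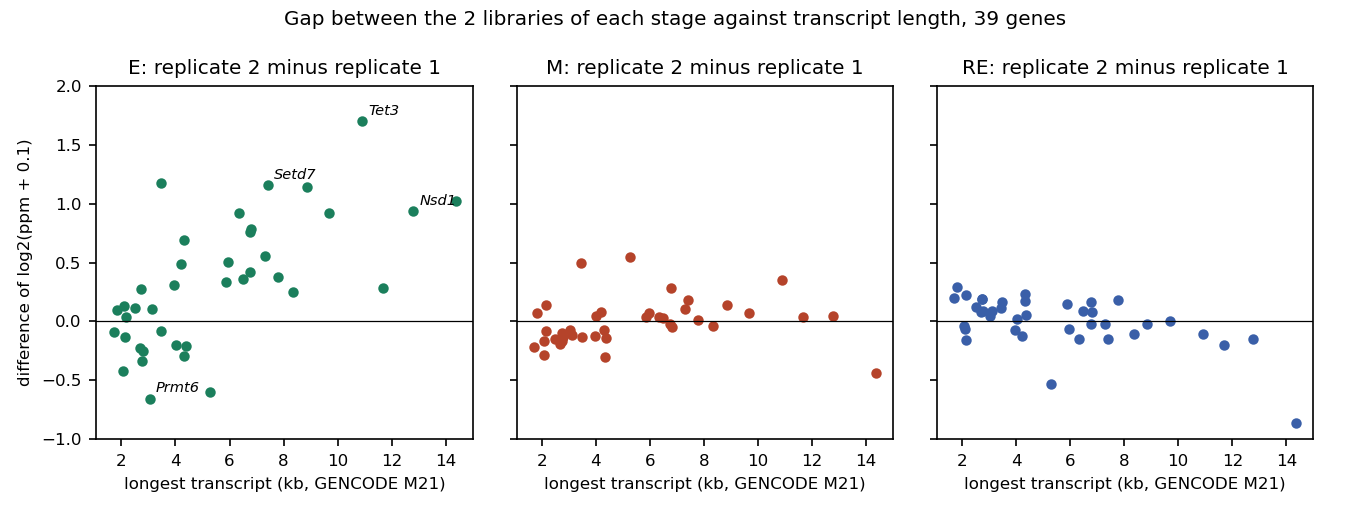
Difference of log2(ppm + 0.1) between the 2 libraries of each stage (replicate 2 minus replicate 1) against the longest transcript in kb, for the 39 tested genes. Points rise with length in E, where *Tet3* is the highest and *Prmt6* the lowest, and stay nearer 0 in M and RE.

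Proliferation markers moved along with several of these genes. Of 15 such markers, 7 rose in M (46.7%, against 21.5% of all genes), with a median of 0.495. In RE against M 10 fell (66.7%, against 14.6%), with a median of -0.67 and all 15 below 0. In E vs. RE 0 passed in limma (against 30.1%), where 3 were at an unadjusted p under 0.05 (median -0.27). Their summed level was 4772 and 4150 ppm in E, 6663 and 6087 ppm in M and 3686 and 4287 ppm in RE. The 7 members that fell from M to RE were *Ezh2*, *Whsc1*, *Suv39h1*, *Prmt1*, *Prmt7*, *Prdm4* and *Prdm1*. Of these, *Suv39h1*, *Prmt1*, *Prdm4* and *Prdm1* had risen in M. In the study's own BrdU assay the order was the other way. M cells proliferated less than E and RE cells there, and only RE differed statistically from M. The marker levels are RNA and do not measure the rate of proliferation. The part of proliferation in these differences was not tested.

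The lysine demethylases remove what the lysine methyltransferases write. Among the 17 tested rows that carry older symbols, which include Prmt9 as the one methyltransferase, 1 passed in E vs. M (5.88%, against 41.4% of all genes), *Aof1* (*Kdm1b*), which rose (0.53 ± 0.14, adjusted p = 0.021). That call was lost with library totals (0.23, adjusted p = 0.193) and with GC and length trends removed (0.24, adjusted p = 0.131). It did not pass with only the 2 groups compared (adjusted p = 0.0534) or with array weights (0.0552) either. In M vs. RE 4 rose and 2 fell (35.3%, against 31.5%). *Jmjd2b* (*Kdm4b*), which demethylates the heterochromatin mark that *Suv39h1* writes, had 34.4 and 39.7 ppm in E, 28.2 and 33.4 ppm in M and 65.5 and 56.6 ppm in RE. Both RE libraries were above the other 4, and it rose (0.99 ± 0.16, adjusted p = 0.00303). *Utx* (*Kdm6a*), a demethylase of the Polycomb mark, had 122 and 127 ppm in E, 163 and 154 ppm in M and 258 and 220.1 ppm in RE, a rise of 0.59 ± 0.13 from M to RE (adjusted p = 0.0142). *Jmjd1a* (*Kdm3a*) rose by 0.51 (adjusted p = 0.0275), and *Jhdm1d* (*Kdm7a*) by 1.71 (adjusted p = 0.0177). *Aof2* (*Kdm1a*, LSD1), which works with the CoREST corepressor, fell by 0.58 (adjusted p = 0.0113), from 327 and 301 ppm in M to 214 and 204 ppm in RE, and its E values of 257 and 245 ppm lay between. *Fbxl10* (*Kdm2b*) fell by 0.44 (adjusted p = 0.0462), a call lost with library totals (-0.235, adjusted p = 0.208), with median-of-ratios factors (0.0516) and with no filter (0.0507).

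In E vs. RE, 6 of the 17 rows passed (35.3%, against 30.1% of all genes) and all of these 6 rose: *Utx* (0.94), *Jmjd1b* (0.76), *Jmjd1a* (0.74), *Jarid1a* (0.73), *Jmjd2b* (0.72) and *Jmjd2c* (0.64). The median over the 17 was 0.595, with 13 above 0, beside a median of 0.01 over all genes. Removing the GC and length trends took *Jarid1a* to 0.12 and *Jmjd2c* to 0.37, neither of which then passed. With only the 2 groups compared, *Jarid1a* (adjusted p = 0.0675), *Jmjd2c* (0.0654) and *Jmjd1b* (0.0962) did not pass. *Jmjd1b* was also lost with library totals (adjusted p = 0.055) and with no filter (0.0654). These rows were found through RefSeq synonyms, and *Jmjd2d* (*Kdm4d*) was too low to be tested.

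**Figure D5:**
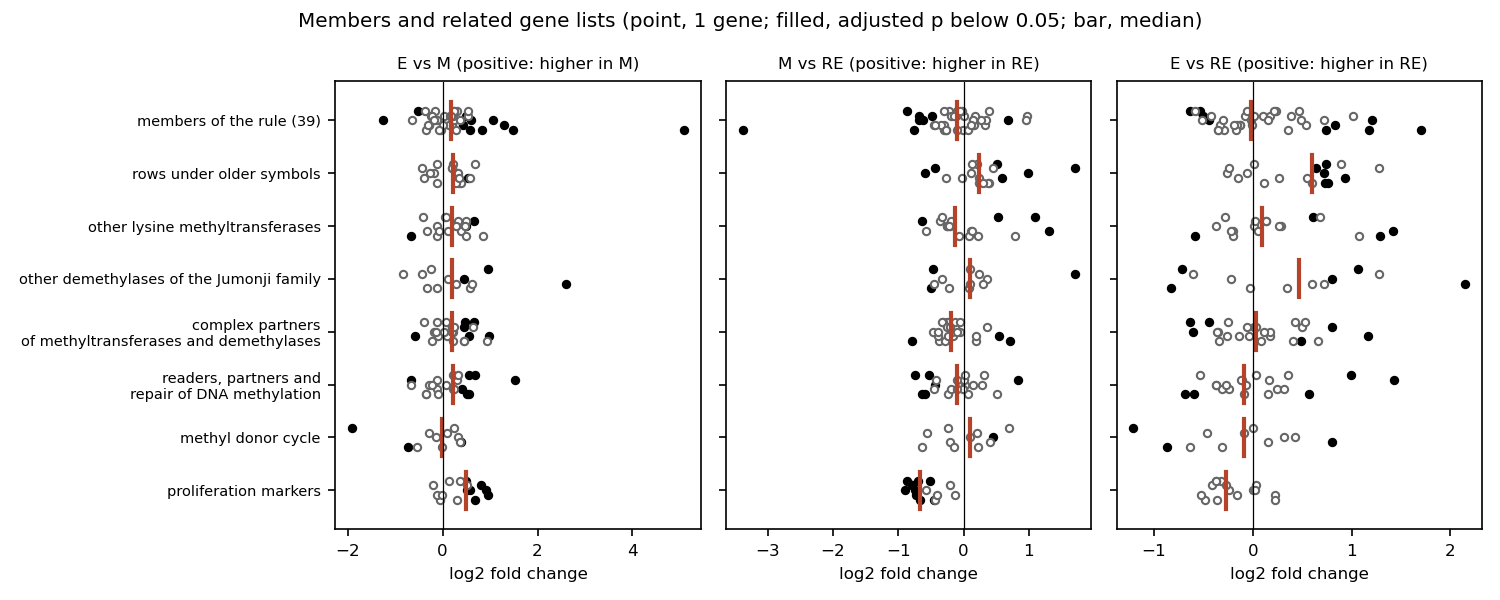
Log2 fold change of each gene (points; filled, adjusted p below 0.05) for the members, the rows under older symbols and 6 related lists, with the median as a bar. The proliferation markers all lie below 0 in M vs. RE, and the older-symbol rows have a median of 0.595 in E vs. RE.

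The related lists of enzymes, partners and substrates stand beside shares of all genes that passed of 41.4%, 31.5% and 30.1% in the 3 comparisons. The list of other lysine methyltransferases also held *Carm1*, an arginine methyltransferase, and *Mettl4*, which is not one of these enzymes. Neither of them passed in any comparison. Of the 18 genes tested from that list, 2 rose and 1 fell in M, and 3 rose and 1 fell in M vs. RE (16.7% and 22.2% in all). In E vs. RE 3 rose and 1 fell (22.2%). *Mll5*, a relative of the trithorax enzymes, was the one DEG among them, with 158 and 283 ppm in E, 223 and 235 ppm in M and 600.4 and 535 ppm in RE. It rose in M vs. RE (1.31 ± 0.25, adjusted p = 0.00708) and was higher in RE than in E (1.42 ± 0.25, adjusted p = 0.00632). Of 25 complex partners tested, 5 rose and 1 fell in M, 2 rose and 1 fell in M vs. RE, and 3 rose and 3 fell in E vs. RE (24%, 12% and 24%), where *Rcor3*, a CoREST protein, was the one DEG (1.17 ± 0.20, adjusted p = 0.00596). Of 12 other Jumonji proteins, 2 of which are also among the older-symbol rows, 3 rose and 0 fell in M, 1 rose and 2 fell in M vs. RE, and 3 rose and 2 fell in E vs. RE (25%, 25% and 41.7%). In E vs. RE 2 of the 12 were DEGs, *Hr* and *Jmjd1c* (16.7%, against 9.37% of all genes). *Hr* (hairless), a corepressor with demethylase activity, had 6.52 and 5.81 ppm in E, 34.0 and 42.1 ppm in M and 27.0 and 28.4 ppm in RE. It rose in M (2.60 ± 0.17, adjusted p = 4.05e-05) and was still higher in RE than in E (2.15 ± 0.17, adjusted p = 0.00037). *Jmjd1c* was higher in RE than in E (1.06 ± 0.18, adjusted p = 0.00488).

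Of 21 readers, partners and repair factors of DNA methylation, 6 rose and 1 fell in M, 1 rose and 5 fell in M vs. RE, and 3 rose and 2 fell in E vs. RE (33.3%, 28.6% and 23.8%). *Zbtb38*, a zinc finger protein that binds methylated DNA, had 41.2 and 81.1 ppm in E, 169 and 167 ppm in M and 166 and 147 ppm in RE. It rose in M (1.54 ± 0.28, adjusted p = 0.00432) and was higher in RE than in E (1.43 ± 0.28, adjusted p = 0.00904), and every M and RE library lay above both E libraries. In the methyl donor cycle, 1 of 11 rose and 2 fell in M, 1 rose and 0 fell in M vs. RE, and 1 rose and 2 fell in E vs. RE (27.3%, 9.09% and 27.3%). *Gnmt*, which consumes the methyl donor S-adenosylmethionine, was the one DEG, with 2.89 and 3.49 ppm in E and 0.714 and 0.836 ppm in M (-1.91 ± 0.26, adjusted p = 0.0011). Both RE libraries lay between those of E and M.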

How the data were processed

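RNA of EpH4 cells was sequenced in 6 libraries. The authors mapped unique reads to the NCBI-m37 genome with Bowtie and TopHat2 (tools also listed in the submitters' processing notes, where edgeR is named for the authors' differential analysis; versions and the gene counter are not given in the sources used here). They deposited whole numbers per gene without normalisation, which are coverage (signal): between 44.8% and 48.4% of the values from 1 to 400 in a library are multiples of 50. Since coverage is not a count of reads, no count test was run. Values were scaled to ppm by unweighted TMM, which trimmed 30% of the log ratios and 5% of the levels per side. The filter asked for 500 bases or more in 2 libraries or more, and limma 3.58.1 (R 4.3.3, trend, all 6 libraries, group only) was fitted to log2(ppm + 0.1), with Benjamini-Hochberg adjustment over 13893 genes. Differences of low genes come out smaller on this scale than they are. The floor was 3 reads' worth (150 bases), which covers counting error only. The fit was also run on simulated data in which all libraries had the same spread for a gene. That run cannot check the shared estimate of spread used here, since the E libraries differed more than the others. Values in each library were set to be given for every member called a DEG and for a fixed set of the DNA methyltransferases, TET, PRC2 and repressive or NSD enzymes, with other members by counts and names; an item that this covers is not reported here. The members and lists were chosen with earlier results of these data known. Transcript length and GC content (GENCODE M21) were found by symbol for 12973 tested genes (93.4%), all 39 tested members included. Promoters came from RefSeq. Alternatives were other scalings, filters, pseudocounts and fits, array weights, a replicate block, leaving out each library and, added after the data were seen, removal of GC and length trends.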

Additional observations from a re-analysis of the deposited data

How the results depend on the processing

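With 2 libraries a stage, and E libraries that differ more than the others, counts of genes that passed moved with the way the spread was estimated, while no direction turned among 38 member and comparison pairs (those that passed or had a fold change above 0.5 on the log2 scale, 570 refitted values) or 22 pairs of other listed genes (330 values). Of these values, 430 and 267 kept their side of adjusted p 0.05, 116 and 63 no longer passed, and 24 and 0 newly passed. The pairs were picked by their size or adjusted p in the main fit of the same data, so their directions had little room to turn. With library totals the median over the tested members in E vs. M went from 0.171 to -0.129, and that over all genes from 0.001 to -0.289. Members called DEGs in E vs. M (4) became 1 with library totals, with no filter and with a fit of only the 2 groups compared, 2 with a pseudocount of 1 ppm and 2 with GC and length trends removed. The DEG of E vs. RE (1) became 0 with no filter, with a pseudocount of 1 ppm and with only the 2 groups. With GC and length trends removed it was again 1, but *Whsc1*, lower in RE, in place of *Prdm11*, higher in RE. *Prdm1* was the DEG of M vs. RE in every alternative run. Genes that passed became 7 (E vs. M, from 11), 22 (M vs. RE, from 8, or 56.4% against 55.8% of all genes) and 3 (E vs. RE, from 9) with only the 2 groups, and 19 in M vs. RE with array weights. Leaving out 1 library gave between 1 and 4 DEGs in E vs. M, always 1 in M vs. RE and between 0 and 7 in E vs. RE, and between 2 and 25, 1 and 22, and 0 and 22 genes that passed. A stage left with 1 library is then assumed to vary like the others. The sources used here do not say whether same-numbered libraries were paired. Correlations of same-numbered deviations were 0.267 (E and M), 0.058 (E and RE) and 0.116 (M and RE), which cannot decide it. With the replicate block, DEGs were 3, 1 and 0 and genes that passed 12, 9 and 8, and *Ezh2* in E vs. RE (adjusted p = 0.0584) and *Fbxl10* in M vs. RE (0.0572) no longer passed. Beside the main split, GC and length removal gave 10 higher and 5 lower in E vs. M, 0 and 11 in M vs. RE, and 3 and 10 in E vs. RE. The causes of these shifts were not tested.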
